A study of Mus musculus with 4 samples.

Results

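Procr-positive basal cells are mammary basal cells in which at least 1 molecule of Procr mRNA was counted. A cell was called basal when it held at least 2000 unique molecular identifiers (UMIs, each a counted mRNA molecule), at least 5 of them from Krt5, Krt14, Krt17 and Acta2, and when that sum exceeded 3 times the sum of Krt8, Krt18 and Krt19. The members were chosen by these counts. Of 18223 cells in the series, 16149 held 2000 UMIs or more, 6321 of these were basal and 166 of those held a Procr UMI. Members numbered 24 and 59 in corn oil replicates 1 and 2, and 36 and 47 in 4OHT replicates 1 and 2. Procr itself and the 7 gate genes chose the cells, so their values are given below as descriptions with no test.

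The 4 libraries were single-cell RNA sequencing of mammary epithelial cells of FVB mice at post natal week 9, with 2 libraries from mice given corn oil and 2 from mice given 4OHT (the tamoxifen metabolite that activates CreERT2). All mice carried floxed Tfap2c on both alleles together with Krt5-CreERT2, a recombinase driven by a basal keratin promoter, so the corn oil mice shared the genotype and lacked the inducer. Injections were daily from week 4, and the labels give 5 days in one field and 1 week in another. The labels name no animals and do not say whether glands were pooled, so the spread between libraries may be technical. In the tests of treatment with no block, p-values measure that spread. In the tests with library as a block, they measure how the difference between members and matched cells varied over the libraries, given the cells picked. The deposited totals ran from 17351950 to 22017878 UMIs per library. Pairs of libraries shared 18 to 36 cell barcodes, none of them a member's in both.

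Procr encodes the endothelial protein C receptor, a membrane glycoprotein that binds protein C and speeds its activation by thrombin and thrombomodulin on vessel walls. In the mouse mammary gland Procr has been proposed as a surface marker of rare basal cells with stem cell activity, and it is also high in endothelial cells and some fibroblasts. Basal cells are the contractile outer layer of ducts and alveoli. Tfap2c, the floxed gene, encodes the transcription factor AP-2 gamma of the mammary epithelium.

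The promoters that bear on the genes described below are shown first, each as the 250 bases before the RefSeq start in GRCm38.p6, 5′ to 3′ on the gene's strand. Procr and Prdx1 are shown because both hold the core of the antioxidant response element, TGACNNNGC on either strand, which is in capitals. In Procr the match lies 154 to 146 bases before the start and also contains the AP-1 motif TGANTCA, so the match cannot be assigned to one motif. The same holds for Prdx1, where the match at 133 to 125 bases contains TGAGTCA, and a second AP-1 motif lies at 237 to 231. Among the other promoters searched the core was also in Nfkbia, Mt2 and Gclm and in Herpud1, which was lower, and it was not in the Fth1 window. The core was present in 10.2% of the 32851 promoters of this length and the AP-1 motif in 6.75%. The AP-2 motif searched, GCCNNNGGC on either strand, was not in this Procr window and was present in 13.7% of all promoters.
Procr (chr2:155750967-155751216, + strand): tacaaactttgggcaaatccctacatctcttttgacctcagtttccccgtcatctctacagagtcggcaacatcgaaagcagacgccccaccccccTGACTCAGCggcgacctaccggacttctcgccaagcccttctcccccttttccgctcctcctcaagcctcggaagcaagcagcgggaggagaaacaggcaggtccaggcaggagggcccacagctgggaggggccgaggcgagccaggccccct
Prdx1 (chr4:116685349-116685598, + strand): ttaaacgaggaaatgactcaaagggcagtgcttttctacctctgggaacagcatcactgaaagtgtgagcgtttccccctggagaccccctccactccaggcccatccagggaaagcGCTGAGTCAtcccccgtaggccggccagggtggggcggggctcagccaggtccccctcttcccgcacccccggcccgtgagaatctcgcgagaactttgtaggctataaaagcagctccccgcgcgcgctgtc
Hspa5, Pdia6 and Hsp90b1 are shown because their transcripts were lower in Procr-positive cells and because each window holds the ER stress response element, CCAAT and CCACG separated by 9 bases on either strand, in capitals. That motif was in 37 of the 32851 promoters, or 0.113%. Hsp90b1 holds it on both strands. The windows of P4hb, Herpud1, Sdf2l1 and Serpinh1, whose transcripts were also lower, were searched and did not hold it in full. The Herpud1 window ends in a match that lacks only its last base, which lies beyond the window. Other forms of the element were not searched. A match is a description of the letters only.
Hspa5 (chr2:34771840-34772089, + strand): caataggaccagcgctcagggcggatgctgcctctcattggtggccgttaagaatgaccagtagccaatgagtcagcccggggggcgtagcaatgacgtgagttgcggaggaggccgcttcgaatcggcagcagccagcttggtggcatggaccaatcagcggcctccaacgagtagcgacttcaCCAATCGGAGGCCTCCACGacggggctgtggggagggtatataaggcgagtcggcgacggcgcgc
Pdia6 (chr12:17266339-17266588, + strand): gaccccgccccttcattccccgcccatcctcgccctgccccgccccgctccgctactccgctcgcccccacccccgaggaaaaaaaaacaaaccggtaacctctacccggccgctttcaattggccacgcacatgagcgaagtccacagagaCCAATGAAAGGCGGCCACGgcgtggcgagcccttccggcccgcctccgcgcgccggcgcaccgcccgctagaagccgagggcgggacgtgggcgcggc
Hsp90b1 (chr10:86705445-86705694, - strand): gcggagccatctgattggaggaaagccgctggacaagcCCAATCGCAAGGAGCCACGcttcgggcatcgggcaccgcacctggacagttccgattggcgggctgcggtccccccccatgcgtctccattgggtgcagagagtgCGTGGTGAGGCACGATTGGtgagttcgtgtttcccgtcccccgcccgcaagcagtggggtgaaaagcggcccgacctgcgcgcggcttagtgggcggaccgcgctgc

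Procr transcripts were rare in basal cells and concentrated in few of them. A Procr UMI was found in 1.64% and 3.37% of basal cells in corn oil replicates 1 and 2, and in 2.75% and 2.61% in 4OHT replicates 1 and 2. The exact binomial 95% intervals, which cover counting error only, ran from 1.05 to 2.43% in the first library and from 2.58 to 4.33% in the second. In luminal cells, which had a like or greater depth, the same 4 libraries gave 0.214%, 1.12%, 0.643% and 0.980%. Median depths were 5190 UMIs in basal and 5589 in luminal cells of corn oil replicate 1, and 3071 and 3999 in those of 4OHT replicate 2. Basal shares were above luminal shares in each of the 4 libraries. Luminal cells were gated in the mirror way, with at least 5 luminal keratin UMIs and over 3 times the basal sum.

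After each cell was thinned to 2000 UMIs, the basal shares were 0.274%, 2.17%, 1.76% and 1.67%, and the luminal shares 0.143%, 0.351%, 0.322% and 0.461%. In corn oil replicate 1 only 4 basal cells kept a Procr UMI, and the basal interval of 0.0746 to 0.699% overlapped the luminal one of 0.0173 to 0.516%. At equal depth the basal share of that library could not be told from the luminal share, while the intervals did not overlap in the other 3 libraries. Its members came largely from its deepest basal cells, with 14 of the 24 holding 6498 UMIs or more.

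Endothelial cells and, in most libraries, fibroblasts carried more Procr. In cells classed as endothelial, 33.3% to 71.0% held a Procr UMI, at 573 to 1104 Procr CPM (UMIs scaled to a common library total), and the class held 158 cells in all. In cells classed as fibroblasts the share ran from 0 to 43.8% over 92 cells. Of 32 leukocytes 1 held a Procr UMI. Basal cells as a whole held 4.98 and 15.4 Procr CPM with corn oil and 21.9 and 14.1 with 4OHT.

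**Figure D1:**
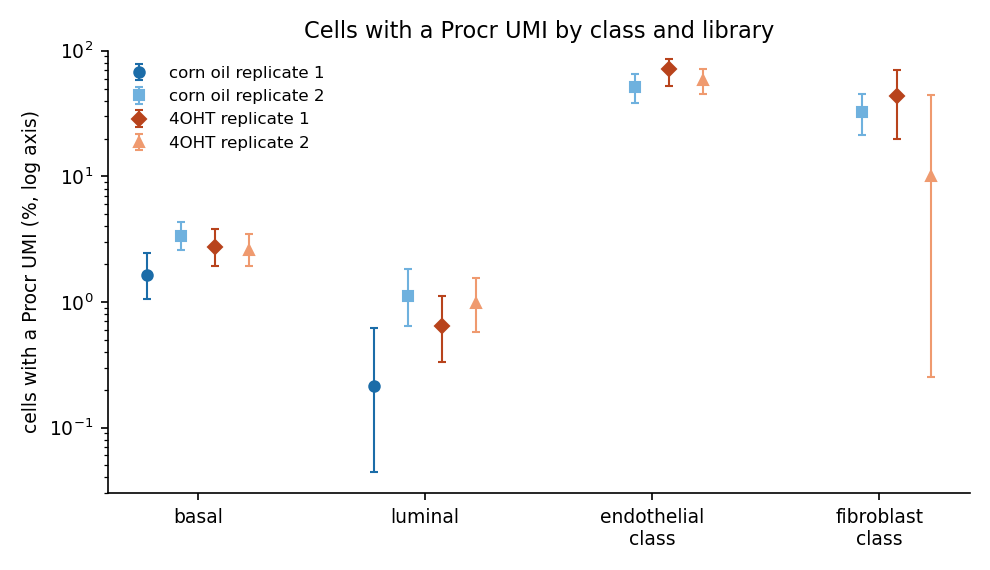
Share of cells with at least 1 Procr UMI (y axis, percent, log axis) by class and library, for classes with 10 cells or more in a library, with exact binomial 95% intervals for counting error. Basal shares of 1.64 to 3.37% sit above luminal shares of 0.214 to 1.12% and below the endothelial class in each library plotted.

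Most members carried a single Procr molecule. Of the 166, 121 held 1 UMI and 45 held 2 or more, and those 45 held 65.0% of the 346 Procr UMIs in basal cells. The highest counts were 48 and 24, both in 4OHT libraries, and then 11, 10 and 10. The variance to mean ratio of Procr in thinned basal cells came to 2.0 and 2.20 with corn oil and to 7.08 and 4.54 with 4OHT. Medians over genes of like level were 1.31, 1.28, 1.33 and 1.36. Cells just outside the gate, with a basal sum between 2 and 3 times the luminal sum, held a Procr UMI in 2.93% of 887 cells, and cells just inside, between 3 and 4 times, in 2.90% of 725.

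The gate genes divided the members unevenly. Acta2, smooth muscle actin, was lower in members than in Procr-negative basal cells of the same library and depth in all 4 libraries, at 2265, 4224, 3241 and 4773 CPM against 7159, 6733, 4704 and 6928. Krt14, a basal keratin, was higher in members in 3 of 4 libraries, at 5005, 7097 and 5797 CPM against 3294, 5198 and 4669, and lower in corn oil replicate 1, at 2623 against 3650. Krt17 was higher in the same 3, at 3959, 2650 and 5262 CPM against 3487, 2599 and 3490, and lower in corn oil replicate 1, at 2563 against 3312. Krt5 was higher in 1 library only, 4OHT replicate 2, at 500 CPM against 282. In corn oil replicates 1 and 2 and 4OHT replicate 1 it had 396, 315 and 289 CPM against 633, 319 and 302. Krt18 and Krt19, luminal keratins, were lower in all 4, and Krt8 was higher in 1, 4OHT replicate 2. A list of 20 luminal markers, which includes Krt8, Krt18 and Krt19, went the other way in all 4. It came to 4753, 5746, 3979 and 4934 CPM in members against 4223, 5088, 3972 and 4663. Trp63, the basal master regulator p63 and not a gate gene, had a UMI in 32 members and in 32 matched cells, and Epcam, an epithelial adhesion molecule, in 142 and 131.

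Of the 166 members, 9 entered the gate on Acta2 with under 5 basal keratin UMIs. They held 19.9% of all Procr UMIs of the members, and 5 of them, in 4OHT replicate 1, held 65 of the 69. The cell with 48 Procr UMIs had 17 Acta2 UMIs and 1 basal keratin UMI. Those 5 cells also held 34 of the members' 67 UMIs of 10 pericyte markers. In 4OHT replicate 1, 13.9% of members and 1.88% of other basal cells had under 5 keratin UMIs, while in corn oil replicate 2 the values were 5.09% and 8.22%.

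Markers of other cell types were counted in the members as a whole. Their endothelial markers came to 107 UMIs against 24 in matched cells, at 44.9 to 221 CPM per library against 12.8 to 69.0. Pericyte markers came to 67 against 12 and leukocyte markers to 9 against 16. Fibroblast markers came to 64 against 180, of which 169 were in the matched cells of corn oil replicate 2, and in the other 3 libraries they were higher in members, at 54.2, 89.8 and 34.5 CPM against 27.3, 25.7 and 11.5. Kdr, Rgs5 and Ptprc, which define endothelial cells, pericytes and leukocytes, were at 0 in the members and equally in the matched cells. Other genes of these lists were counted: Emcn had 7 UMIs in members against 1, Pdgfrb 5 against 0 and Rgs4 19 against 1. Cd74, of the leukocyte list, had 8 against 16. Pecam1 had 26 UMIs in 19 members and 18 UMIs in 18 matched cells, Cdh5 had 4 against 0, and Des, a filament protein of muscle and pericytes, 17 against 0. One or more UMIs of 12 other-type markers were found in 21.7% of members and 22.9% of matched cells, and of 39 such markers in 33.7% and 27.7%.

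**Figure D2:**
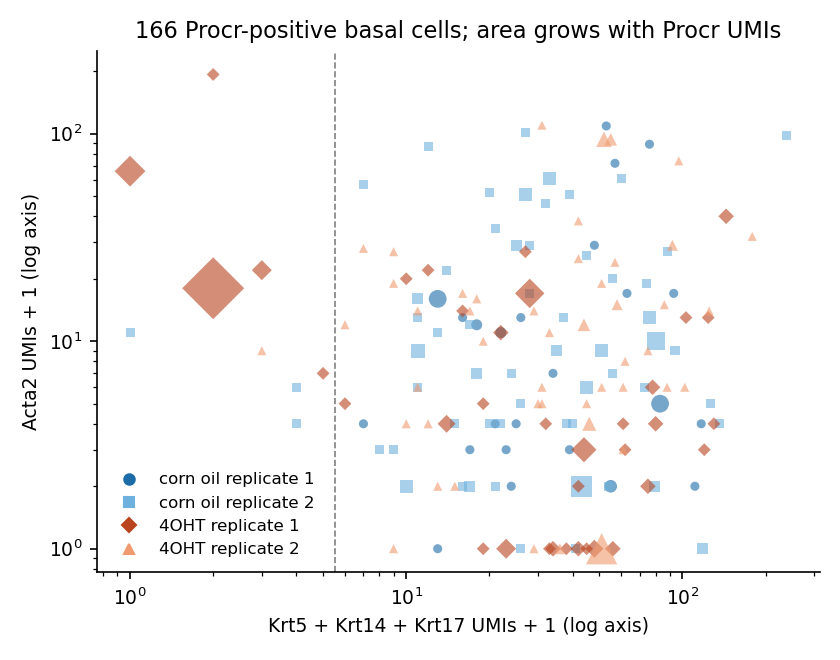
Each point is 1 of the 166 Procr-positive basal cells, placed by its basal keratin UMIs plus 1 (x, log axis) and its Acta2 UMIs plus 1 (y, log axis), with the area growing with its Procr UMIs and colour and shape giving the library. The dashed line separates the 9 members with under 5 keratin UMIs, among them the largest point, the cell of 4OHT replicate 1 with 48 Procr UMIs.

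To ask how Procr-positive basal cells differ from other basal cells, each was matched to the Procr-negative basal cell of its library nearest in total UMIs, counts were summed per library and side, and edgeR's quasi-likelihood test was run with the library as a block. Of 2034 genes tested, 23 passed a Benjamini-Hochberg adjusted p of 0.05, which is 1.13%, with 11 higher (0.541%) and 12 lower (0.59%) in the members. All 23 had the same sign in the 4 libraries, which a test with the library as a block favours. Of all genes tested, 11.9% were higher and 11.0% lower in all 4 libraries. The higher genes were Cryab, Rcan1, Nfkbia, Clu, Map2k3, Slpi, H2-Q4, Fth1, Prdx6, Hspb1 and Mt2. The lower genes were Cyr61, Stbd1, Osr1, P4hb, Herpud1, Pdia6, Sdf2l1, Ero1l, Hspa5, Serpinh1, Hsp90b1 and Tagln. The count rested on corn oil replicate 2 and 4OHT replicate 2: it was 1 without the former, 5 without the latter, 13 without corn oil replicate 1 and 43 without 4OHT replicate 1. It was 0 when the library block was dropped (109 at an unadjusted p under 0.05), and 5 when cells with any of the 39 other-type markers were left out.

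A matched set of 166 cells can itself be uneven, so the comparison was repeated with the 10 nearest Procr-negative cells per member, an alternative chosen after seeing the data. It kept the same members and held the first matched set of 166 cells, so it was not an independent repeat. It tested 6124 genes and called 32 (0.523%), 21 higher (0.343%) and 11 lower (0.18%). Fabp4, a fatty acid binding protein of capillary endothelium and adipocytes, named after its values were seen, had the largest difference of these, at 3.17 ± 0.34 (edgeR adjusted p = 0.000318). All 23 genes kept their sign and 13 were called again: Slpi, Map2k3, H2-Q4, Fth1 and Nfkbia higher, and Stbd1, Osr1, P4hb, Herpud1, Pdia6, Ero1l, Hspa5 and Tagln lower.

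**Figure D3:**
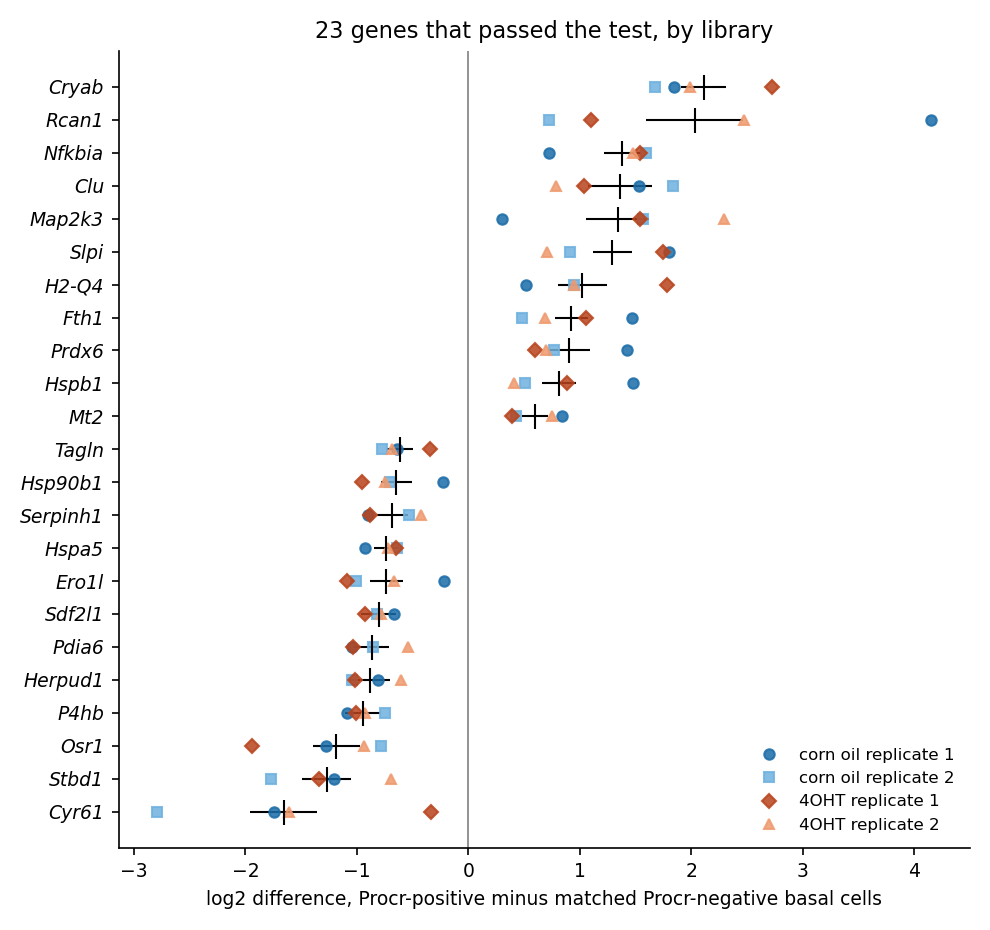
Difference in log2 CPM between Procr-positive and depth-matched Procr-negative basal cells (x axis) for the 23 genes with adjusted p under 0.05 by edgeR (y axis). Coloured points are the 4 libraries and the black bar is the fitted value with its standard error. All 4 points of each gene lie on the same side of 0, and Rcan1 and Cyr61 spread most.

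Among genes of secretion and defence, Slpi rose in the Procr-positive cells. Slpi, a secreted inhibitor of leukocyte proteases, stood at 29611, 21016, 25636 and 13888 CPM in members of corn oil replicates 1 and 2 and 4OHT replicates 1 and 2, against 9019, 11334, 7784 and 7889 in matched cells. Each member value was above each matched value, over all libraries. The fitted log2 difference was 1.29 ± 0.17 (SE, edgeR adjusted p = 0.00377) and 1.17 with 10 matched cells. Per thinned cell the Slpi medians were 39, 22, 32 and 7 UMIs in members against 3, 4, 6 and 5 in other basal cells. Members with 2 or more Procr UMIs held 28299, 20644, 18259 and 8882 CPM, and Slpi was not called when only these were compared.

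Nfkbia, the inhibitor of NF-kB that NF-kB itself induces, stood at 412, 887, 1989 and 1616 CPM in members against 262, 295, 693 and 535. It was higher in 4 of 4 libraries, and the levels differed more between libraries than between sides. Its log2 difference of 1.38 ± 0.16 (edgeR adjusted p = 0.00176) was 0.77 with 10 matched cells, about as large a drop in ratio as that of Rcan1 below, and passed there (edgeR adjusted p = 0.0174). Map2k3, a kinase that activates p38, was found in 84 members and 42 matched cells, at 179, 252, 212 and 173 CPM against 153, 82.6, 70.6 and 28.7. Its groups did not overlap, and the log2 difference was 1.34 ± 0.28 (edgeR adjusted p = 0.0426). H2-Q4, an MHC class I heavy chain, had 201, 319, 250 and 196 CPM against 147, 165, 70.6 and 92.0. H2-Q4 belongs to a family of near-identical genes, so its counts are uncertain.

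Fth1 and Prdx6 were higher in the members. Fth1, ferritin heavy chain, stood at 28987, 18693, 7097 and 6866 CPM in members against 11098, 13538, 3472 and 3956 in matched cells. It was higher within each library, while both sides of the corn oil libraries were above both sides of the 4OHT libraries. The log2 difference was 0.92 ± 0.15 (edgeR adjusted p = 0.0132). Prdx6, a peroxiredoxin, had a log2 difference of 0.91 ± 0.19, with an edgeR adjusted p of 0.0401 that became 0.0766 with 10 matched cells.

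Fth1 and Prdx6 belong to a list of 25 antioxidant genes written after values of these data were seen, so the list gives no independent evidence. All 15 of its tested genes had a fitted difference above 0, with a median of 0.74 against -0.01 over all genes, and 12 of the 15 were higher in all 4 libraries, as were 11.9% of all genes tested. Hmox1, heme oxygenase, stood at 5598, 3687, 1091 and 1645 CPM against 649, 2660, 616 and 713, a log2 difference of 1.37 ± 0.33 that missed the threshold (edgeR adjusted p = 0.0712). Prdx1, another peroxiredoxin, had 0.62 ± 0.16 (adjusted p = 0.0810, edgeR). With 10 matched cells, 7 of 24 tested list genes passed, all higher, where 0.343% of all genes tested were called higher. They were Fth1, Gclc, Hmox1, Prdx1, Slc7a11, Srxn1 and Taldo1. Of these, Gclc and Slc7a11 (glutathione synthesis), Srxn1 and Taldo1 are named after their values were seen. Hmox1 was then 1.16 higher (edgeR adjusted p = 0.0117) and Prdx1 0.74 higher (edgeR adjusted p = 0.0173).

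The antioxidant difference was uneven among the members. With each cell thinned to 2000 UMIs, the 25 genes summed to a median of 56 UMIs in members of corn oil replicate 1 and 33 in corn oil replicate 2, against 15 and 16 in the other basal cells. In the 4OHT libraries the medians were 15 and 16 in members against 13 and 13. Members ranged from 6 to 333 UMIs in corn oil replicate 1 and from 1 to 144 in 4OHT replicate 2. The 90th percentile of the other basal cells was passed by 12 of 24, 20 of 59, 6 of 36 and 11 of 47 members. Members with a single Procr UMI held more Hmox1 than matched cells in each library, at 5330, 3278, 909 and 1577 CPM against 649, 2660, 616 and 713.

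**Figure D4:**
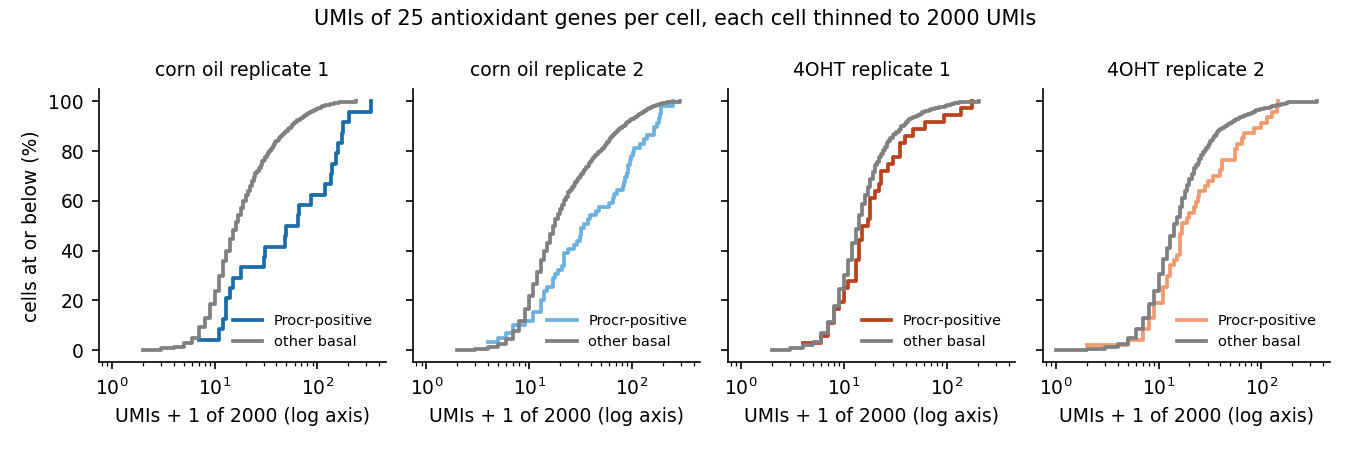
Cumulative share of cells (y axis, percent) by the summed UMIs of 25 antioxidant genes plus 1 (x axis, log axis) after thinning each cell to 2000 UMIs, for Procr-positive cells (colour) and other basal cells (grey) of each library. The coloured curves lie furthest right in the corn oil libraries, with medians of 56 and 33 UMIs against 15 and 16.

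Cryab and Hspb1, a pair of small heat shock proteins, were higher in the members, while Hspb8, with 96 UMIs in members and 84 in matched cells, did not pass. Cryab, alpha B crystallin, had 1431, 197, 988 and 311 CPM against 420, 59.0, 148 and 69.0, and a log2 difference of 2.11 ± 0.20 (edgeR adjusted p = 0.000343). One member held 165 of the 522 Cryab UMIs, and with 10 matched cells the difference was 1.39 (edgeR adjusted p = 0.0745). Hspb1, the only one of 10 tested heat shock genes to pass, had 0.81 ± 0.15 (edgeR adjusted p = 0.0292). With 10 matched cells it had 0.76 (edgeR adjusted p = 0.0745). After thinning to 2000 UMIs, the 95 basal cells that kept a Procr UMI were compared with all other basal cells, unmatched. There the sign for Hspb1 turned, to -0.37. Hsph1, an Hsp110 chaperone, was next in that list at 0.67 ± 0.30 without passing. The list's median was 0.27, with 8 of 10 fitted above 0. Of all 2034 genes tested, 997 were fitted above 0 and 0.541% were called higher.

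Rcan1, Clu, Mt2 and Cyr61 had smaller differences and no call with 10 matched cells per member, while each was called with 2 per member. Rcan1, a calcineurin inhibitor, had 1 member with 43 of its 130 UMIs, and its log2 difference of 2.03 ± 0.43 was 1.15 with 10 matched cells. Clu, clusterin, had 1.36 and then 0.66, and Mt2, a metallothionein, 0.60 and then 0.14. None of Rcan1, Clu and Mt2 was called with 10 matched cells. Cyr61, a YAP target and matrix protein, was lower by 1.66 on the log2 scale, but 1 matched cell held 568 of its 1207 UMIs on that side, and with 10 matched cells the difference was -0.44 and did not pass. Tead1, the DNA-binding partner of YAP, was next among 8 tested YAP targets, at -0.38 ± 0.21, and did not pass.

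Several chaperones of the endoplasmic reticulum, 8 of 23 tested, fell in the Procr-positive cells, where 0.59% of all genes tested were called lower. Without cells holding any of the 39 other-type markers, which also left fewer cells and genes, none of the 8 passed, and P4hb was at -0.93, Pdia6 at -1.03 and Hspa5 at -0.62. Hspa5, the lumenal Hsp70 BiP, stood at 2406, 2181, 1854 and 2208 CPM in members against 4851, 3444, 2965 and 3387 in matched cells. Every member value was below every matched value, and the log2 difference was -0.74 ± 0.11 (edgeR adjusted p = 0.0102). P4hb, a protein disulfide isomerase, had 309, 335, 154 and 437 CPM against 704, 575, 321 and 776, lower in each library although the groups overlapped across libraries. Pdia6, another isomerase, was lower by 0.87 and Herpud1, a protein of the degradation complex, by 0.88, with each lower in 4 of 4 libraries. Ero1l, the oxidase that recharges these isomerases and is also induced by hypoxia, had 1550, 1088, 558 and 1829 CPM against 1921, 2224, 1213 and 2697.

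Of 23 tested genes of an ER chaperone list written after values were seen, 8 passed, all lower, and 20 were lower in all 4 libraries, as were 11.0% of all genes. The list's median was -0.65. Sdf2l1, Serpinh1 (the collagen chaperone) and Hsp90b1 passed with 1 matched cell, at -0.80, -0.68 and -0.65, and missed the threshold with 10, at -0.68, -0.56 and -0.59. With 10, 5 of 24 passed, all lower, where 0.18% of all genes tested were called lower, and the median was -0.68. Hspa5, Pdia6 and Hsp90b1 are the genes with the ER stress response element printed above. Per thinned cell, the ER chaperone list summed to medians of 12, 8, 10.5 and 12 UMIs in members against 17, 11, 15 and 13 in other basal cells. The 90th percentile of the others was passed by 1, 1, 1 and 5 members, or 4.17%, 1.69%, 2.78% and 10.6%, and by 9.60%, 9.99%, 9.89% and 9.93% of the others. Hypoxia and glycolysis genes had a median of -0.42, with 1 of 14 passing (Ero1l), where 0.59% of all genes tested were called lower. Ndrg1, induced by hypoxia, was at -0.72 ± 0.18 without passing (edgeR adjusted p = 0.0810).

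Contractile and basal genes were lower or did not pass. Tagln, the smooth muscle protein transgelin, had 1761, 1790, 2086 and 2645 CPM in members against 2924, 3109, 2702 and 3956. Each member value was below each matched value, with a log2 difference of -0.62 ± 0.12 (edgeR adjusted p = 0.0292). It was the only one of 13 tested smooth muscle genes to pass, where 0.59% of all genes tested were called lower. All 13 were fitted below 0, with a median of -0.36, where 1037 of 2034 genes tested were fitted below 0. Oxtr, the oxytocin receptor, stood at 48.8, 78.9, 135 and 121 CPM against 251, 173, 231 and 155, at -1.10 ± 0.26 without passing (edgeR adjusted p = 0.0702) and at -0.59 with 10 matched cells. Of 16 tested basal identity genes 1 passed, again Tagln, where 0.59% of all genes tested were called lower. The median of that list was -0.18.

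A pair of further genes fell without belonging to any list. Stbd1, which tethers glycogen to membranes, was found in 44 members and 66 matched cells, at 108, 74.9, 64.2 and 178 CPM against 273, 272, 173 and 270. Its log2 difference was -1.27 ± 0.22 (edgeR adjusted p = 0.0206). Osr1, a zinc finger transcription factor, was found in 51 members and 77 matched cells, at 103, 142, 77.0 and 276 CPM against 273, 252, 314 and 494. Both were lower in 4 of 4 libraries, and both were called again with 10 matched cells.

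**Figure D5:**
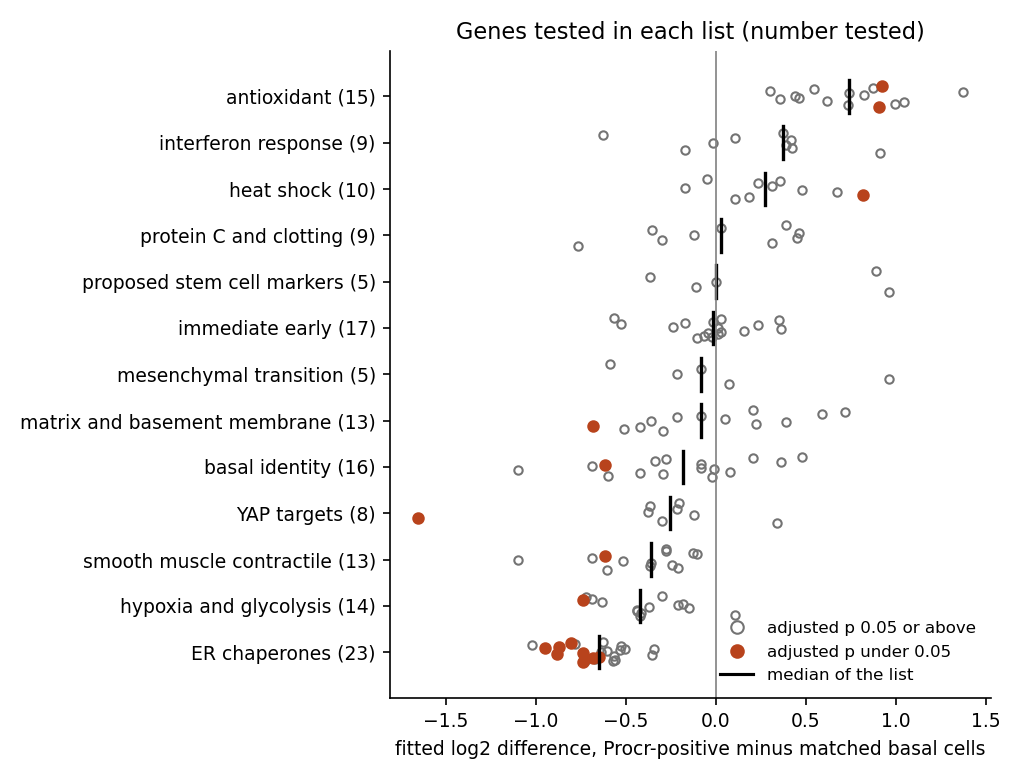
Fitted log2 difference between Procr-positive and matched basal cells (x axis) for each tested gene of the lists with at least 5 tested genes (y axis, number tested in brackets), with genes of adjusted p under 0.05 filled and the list median as a black bar. The antioxidant list (median 0.74) and the ER chaperone list (median -0.65), both written after values were seen, lie at opposite ends.

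Markers proposed for mammary stem cells did not pass. Only 5 of 21 listed genes were abundant enough to test, with a median of 0.00, where 1.13% of all genes tested passed. Cd44, a hyaluronan receptor, stood at 163, 154, 186 and 92.0 CPM against 54.6, 63.0, 116 and 80.5, higher in 4 of 4 libraries, with a log2 difference of 0.96 ± 0.27 (edgeR adjusted p = 0.122). Sox10, a factor of neural crest and mammary stem-like cells, was at 0.89 ± 0.33 (edgeR adjusted p = 0.237). The untested genes of the list were sparse. Lgr5, a gene of the Wnt pathway, had 8 UMIs in members and 12 in matched cells. Tspan8 had 23 and 10, Bcl11b 1 and 2, and Axin2, a Wnt target, 2 and 2. At these counts no difference in Lgr5, Bcl11b or Axin2 was detectable.

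Most of the protein C pathway was too sparse to test. Of 22 listed genes 9 were tested and 0 passed by edgeR, where 1.13% of all genes passed, with a median of 0.03. Thbs1, a platelet matrix protein, was at -0.76 ± 0.29 and S100a10, a plasminogen receptor subunit, at 0.31 ± 0.16. Thbd, the thrombomodulin that partners Procr, had 3 UMIs in members and 0 in matched cells, and Proc, protein C, had 0 in both. F3, tissue factor, had 54 and 67.

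In the other lists no gene, or 1 at most, passed, where 1.13% of all genes tested passed. In lists this short, 0 or 1 cannot be told from that share. Of 5 tested genes of mesenchymal transition 0 passed by edgeR; Cd44 was the first and Snai2, a repressor of E-cadherin, was at -0.59 ± 0.32. Vim had 330 UMIs in members and 300 in matched cells. Of 13 matrix genes Serpinh1 passed, and Adamts1, a metalloprotease, was at 0.71 ± 0.27. Of 17 immediate early genes 0 passed by edgeR, with Fos at -0.53 ± 0.21 and Egr1 at -0.57 ± 0.23. Of 9 interferon genes 0 passed by edgeR, with Ifitm3 at 0.42 ± 0.13 and Isg15 at 0.91 ± 0.44. The Wnt, AP-2 and proliferation lists had 2, 2 and 1 tested genes: Ctnnb1, beta-catenin, was at 0.11 ± 0.25 and Ccnd2, a cyclin, at 0.10 ± 0.35. Mki67 and Top2a, markers of dividing cells, had 0 UMIs in members and in matched cells.

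Cxcl1, Cxcl2 and Il6 were concentrated in few members, unlike Cxcl14, the most abundant chemokine listed, which had 310, 418, 267 and 347 UMIs in members and 254, 447, 222 and 200 in matched cells. Cxcl1, a neutrophil attractant, stood at 233, 1128, 924 and 97.8 CPM against 27.3, 74.8, 38.5 and 241, higher in 3 of 4 libraries and lower in 4OHT replicate 2. Its log2 difference of 2.50 ± 0.69 did not pass (edgeR adjusted p = 0.110) and passed with 10 matched cells at 2.34 (edgeR adjusted p = 0.0268), as did Cxcl2, named after its values were seen. One member held 226 of the 490 Cxcl1 UMIs. Cxcl2 had 66 UMIs in 12 members against 4 in 4 matched cells, and Il6 had 56 in 11 members against 5 in 3, with 30 of the 56 in 1 member. Endothelial and pericyte markers also moved with the members, as given above, and their part in the chemokine counts was not tested beyond Cxcl1. Its difference was 2.04 without cells holding any of the 39 markers, where it did not pass (edgeR adjusted p = 0.261).

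The second question was whether 4OHT changed the number of Procr-positive basal cells or their transcripts. Over all basal cells Tfap2c, the floxed gene, stood at 389 and 289 CPM in corn oil and 289 and 331 CPM in 4OHT libraries, a log2 difference of -0.06 ± 0.25 (edgeR adjusted p = 0.9998). The deposited counts sum the whole gene and the labels do not give which exons are floxed, so this does not check the deletion. In members against matched cells Tfap2c had 347, 174, 128 and 305 CPM against 366, 275, 488 and 351, lower in 3 libraries and nearly equal in corn oil replicate 1, and did not pass at -0.64 ± 0.25 (edgeR adjusted p = 0.257).

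The share of basal cells with a Procr UMI after thinning was 1.22% ± 1.34 (SD, n = 2) with corn oil and 1.71% ± 0.0623 (SD, n = 2) with 4OHT. The difference of 0.489 percentage points had a two-sided exact permutation p of 1, and 2 libraries against 2 cannot go below 0.333. The corn oil values of 0.274% and 2.17% lie on either side of the 4OHT values, and without corn oil replicate 1 the difference was -0.460 points. The Procr level over all basal cells was 10.2 ± 7.38 CPM with corn oil and 18.0 ± 5.49 CPM with 4OHT (SD, n = 2), a log2 difference of 0.85 ± 0.53 (edgeR adjusted p = 0.9998). The highest Procr cell of 4OHT replicate 1 weighed on this: without it the difference was 0.49, and with a gate on keratins alone 0.29. A change in the share of Procr-positive cells was not detectable with these libraries.

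Between treatments within the members, 0 of 2156 tested genes passed by edgeR (0.0%), with 149 at an unadjusted p under 0.05, while DESeq2 called 7. Lower with 4OHT, without passing, were Fth1, with 28987 and 18693 CPM in corn oil and 7097 and 6866 CPM in 4OHT members (log2 difference -1.74 ± 0.23, edgeR adjusted p = 0.360), Hmox1 at -1.73 ± 0.33 and Lgals7, a keratinocyte galectin, at -3.10 ± 0.55. Higher without passing were Sncg, gamma-synuclein, at 5.75 ± 0.83, Crip1, a LIM domain protein, at 5.24 ± 0.96 and Ptp4a3, a phosphatase, at 3.84 ± 0.74. One member held 38 of the 91 Sncg UMIs and 102 of the 229 Crip1 UMIs were also in 1 member. In the matched cells Fth1 was likewise lower in the 4OHT libraries, at 3472 and 3956 CPM against 11098 and 13538.

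The difference between members and matched cells was then compared between treatments, as an interaction in the edgeR fit. Of 2627 tested genes 4 passed (0.152%), 3 with a larger member difference in 4OHT (0.114%) and 1 with a smaller one (0.0381%). Isg15, Irf7 and Phf11d, all interferon-induced, had a larger difference between members and matched cells with 4OHT than with corn oil. Isg15 had 366 and 293 CPM in 4OHT members against 57.8 and 23 in their matched cells, and 287 and 477 in corn oil members against 426 and 405. The matched cells of the 4OHT libraries were the low group, below each of the other 6 values. Irf7, a transcription factor of the interferon response, had 109 and 51.8 CPM in 4OHT members against 6.42 and 5.75, and 48.8 and 51.3 in corn oil members against 104 and 157. Phf11d had 148 and 51.8 against 6.42 and 5.75 with 4OHT, and 70.5 and 82.8 against 115 and 126 with corn oil. Fabp5, a fatty acid binding protein, went the other way, with 122 and 167 CPM in 4OHT members against 308 and 454, and 363 and 635 in corn oil members against 104 and 244. Without the single cell of 48 Procr UMIs only Fabp5 passed, and without cells holding any of the 39 other-type markers 0 passed by edgeR (34 at an unadjusted p under 0.05). The next gene lower in this test, B930036N10Rik, did not pass.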

How the data were processed

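Single-cell matrices of 4 libraries were used, 2 of the corn oil and 2 of the 4OHT group as the labels' treatment field gives them. The deposited values are UMI counts per gene and cell over 31053 genes, made with bcl2fastq and Cell Ranger 3.0.1 on build mm10, per the submitters' processing notes; filters were not given in the sources used here. The members, gene lists and tests were chosen with earlier results of these data known. Basal and other classes were gated by marker counts; the class gates needed 2000 UMIs per cell. UMIs were summed per library and side, genes were filtered with filterByExpr, and differences were tested with edgeR 4.0.16 (TMM, quasi-likelihood, Benjamini-Hochberg over all genes tested) in R 4.3.3, leaving out Procr and the 7 gate genes. Library was a block where both sides came from each library. CPM values use the deposited totals of the summed cells. Shares were compared with an exact permutation test in Python 3.11.15, with exact intervals from scipy 1.17.1. Alternatives were DESeq2 1.42.0, other filters, cells left out and other matched sets.

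Doublets were scored with Scrublet in scanpy 1.11.5. Its own threshold marked at most 0.52% of a library and was not used; instead, as an alternative only, the top 0.8% per 1000 cells were left out. Genes named in the text were Procr and Tfap2c, up to 12 per direction with the largest difference among those passing at 20 CPM or more with 1 sign in 4 libraries, the 3 of smallest p per direction in each test of treatment, and 2 per list (1 where at most 3 were tested, 4 in the lists written after values were seen). A gene that this rule also named is not reported here. Counts were simulated from the mean levels and totals of these libraries, with changes of 2 on the log2 scale. Their spread was set and not taken from these data. The test against matched cells recovered 93.8% of changed genes, with 5 false calls. The treatment test recovered 22.7% with 0 false calls, and the test of the difference between treatments 8.0% with 2. Most differences of members from matched cells given above were smaller, so these rates do not give the power for them. Promoter sequences came from RefSeq on GRCm38.p6, where 19 of 27 genes searched had an entry.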

Additional observations from a re-analysis of the deposited data

Results flagged for a closer look

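Fabp5, Isg15, Irf7 and Phf11d differed between treatments in how Procr-positive cells compared with matched cells, by the interaction term of the edgeR fit. The difference between 4OHT and corn oil was -3.05 ± 0.39 on the log2 scale for Fabp5 (adjusted p = 0.00374, edgeR); members were above matched cells in both corn oil libraries and below them in both 4OHT libraries. It was 3.08 ± 0.48 for Isg15 (adjusted p = 0.0144, edgeR), 4.87 ± 0.77 for Irf7 (adjusted p = 0.0144, edgeR) and 4.41 ± 0.74 for Phf11d (adjusted p = 0.0217, edgeR). All 4 were called again with 10 matched cells per member, at -2.42, 1.75, 3.22 and 2.42. Without the single cell of 48 Procr UMIs, Fabp5 was called again, while Isg15 was at 2.47 (adjusted p = 0.382, edgeR), Irf7 at 4.51 and Phf11d at 3.89, none of these passing. Over the alternatives run, the adjusted p of Isg15 ranged from 2.00e-07 to 0.999 and that of Fabp5 from 1.00e-09 to 0.9998.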

How the results depend on the processing

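The count of 23 genes that differed between Procr-positive and matched cells became 113 with no filter on low counts, 46 without high doublet scores, 41 without cells holding any of 12 other-type markers, 15 with at least 2 Procr UMIs per member, 5 without cells holding any of 39 such markers, 273 against all Procr-negative basal cells and 53 with 2 matched cells. With cells thinned to 2000 UMIs, which left 95 members against 6226 other basal cells without matching, it was 26 of 6580 genes tested. Leaving out each library gave 1 to 43. The count of 0 between treatments became 38 with no filter, 7 with DESeq2 and 6 with at least 2 Procr UMIs, and 1 to 79 when each library was left out. The count of 4 for the difference between treatments became 21 with no filter, 1 with DESeq2, 1 and 0 without cells holding 12 or 39 other-type markers, 2 with a gate on keratins, 0 with at least 2 Procr UMIs, 1 without the cell of most Procr UMIs, 9 with 10 matched cells and 7 to 38 when each library was left out. The share difference ran from -0.460 to 1.44 points when each library was left out, and the Procr level kept its sign and did not pass in 13 alternatives (0.21 to 1.96). The cause of these shifts was not tested.

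The labels give both groups replicate numbers 1 and 2 without saying that a number is shared. Same-numbered libraries deviated together (correlation 0.214 in members and 0.556 in all basal cells), a hint from the data. With the replicate number as a block, 2 genes passed between treatments, the Procr level difference was 0.98 and the share difference 0.489 points. With no replicate block, here the library, the counts of 23 and 4 became 0 and 0 (109 and 53 genes at an unadjusted p under 0.05 in edgeR).

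Signs turned for a few named genes, most of them without a call. The fit after thinning to 2000 UMIs set the 95 cells that kept a Procr UMI against all other basal cells, so the cells compared also changed. There the log2 difference was -0.033 for Rcan1, -0.37 for Hspb1, -0.041 for Mt2, -0.72 for Ctnnb1, -0.18 for Ifitm3, -0.20 for Ccnd2 and -0.27 for Prdx1. Against all Procr-negative cells it was -0.034 for Mt2 and -0.017 for Ccnd2, with 10 matched cells -0.091 for Ccnd2, with a gate on keratins -0.0235 for Ctnnb1, without the 12 markers 0.049 for Egr1, and with at least 2 Procr UMIs 0.11 for Tead1. Leaving out each library moved Ccnd2 from -0.18 to 0.41 and Tfap2c in all basal cells, 4OHT against corn oil, from -0.26 to 0.13.

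With 24 to 59 members a library and most holding 1 Procr UMI, depth limits which basal cells can be seen as Procr-positive at all. Genes under the count filter could not be compared. With 2 libraries a group, a difference between treatments had to be large to pass, and a missed threshold does not show that levels were alike.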
